A study of Bos grunniens with 6 samples.

Results

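The growth factor and receptor tyrosine kinase genes of the cattle-yak testis m6A map were examined as a set of 99 gene identifiers under 90 symbols, out of 8986 identifiers with a listed m6A peak. They were chosen by name, as every symbol of the peak list that begins with one of the stems of these families (fibroblast, epidermal, platelet-derived, vascular endothelial and insulin-like growth factors and their receptors, neurotrophin, ephrin, MET, RET, DDR, TEK and ROR receptors, receptor-type tyrosine phosphatases, the SOS, GRB, GAB and IRS adaptors, neuropilins, plexins and semaphorins). The rule needs a symbol in the peak list, so that the presence of a peak is a condition of entry and not a result. The testes came from the castration of 3 healthy 5-year-old cattle-yaks, hybrids of yak and cattle whose males are sterile. The animals are called TES5, TES6 and TES7. From each, fragmented mRNA was sequenced after immunoprecipitation with an anti-m6A antibody (IP) and without it (input), which made 6 libraries with no treatment and no second condition in the files analysed here. The peak list is 1 list for the group, without a score or a value per animal, and the FPKM values (fragments scaled by transcript length and library size, so that levels of different genes can be compared) cover the 3 input libraries, so that expression has a spread between animals and peaks have none.

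Receptor tyrosine kinases are membrane proteins that bind a growth factor outside the cell and phosphorylate tyrosines inside it, on which adaptor proteins assemble and pass the signal to RAS and PI3K. Receptor-type tyrosine phosphatases remove such phosphates, and semaphorins and ephrins are guidance cues read by plexins, neuropilins and EPH receptors. In the testis these families are known for the growth of Sertoli cells (insulin and IGF receptors), the formation of Leydig and peritubular cells (PDGF receptors) and the upkeep of spermatogonial stem cells (RET). m6A is a methyl mark on adenosine in mRNA, and a peak is a stretch where the IP library is enriched over its input.

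The symbols were first checked against the other annotation in the list, because several levels below depend on it. For 8 of the 99 identifiers the listed gene ontology terms named another kind of function, with 0 terms for tyrosine kinase or growth factor activity in each. The 0 says little for *GAB3*, an adaptor, and for the prefix matches *HGFAC* and *EGFL6*, which need no such term. Such terms were not counted for the other members. The identifier that carries *ERBB3* (ENSBGRG00000001097) had terms for export of the large ribosomal subunit and DNA binding, and the one that carries *FGF18* (ENSBGRG00000016969) had terms for export of both ribosomal subunits and chromatin binding. The one that carries *FGFR1* (ENSBGRG00000016869) had terms for the mitochondrial inner membrane and ribosome binding. In the RefSeq annotation of another yak assembly (Bosgru_T2T1.0), *ERBB3*, *FGF18* and *FGFR1* lay next to *PA2G4*, *NPM1* and *LETM2*. Terms of another kind were also listed for *HGFAC*, which lay next to *RGS12*, for 1 of 2 identifiers named *INSR* (ENSBGRG00000014851), for *EGFL6* on chromosome Y and for 2 of the 4 identifiers named *GAB3* (terms for DNA-binding transcription factors). Values of these 8 identifiers are given below under the symbol the list uses, and are not certain to belong to the named gene. Any ontology term was listed for 84 of the 99 identifiers, so that the rest could not be checked in this way. The term of RNA-directed DNA polymerase, on 21 of the 84, did not by itself count as a conflict.

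A further 4 identifiers were listed at an FPKM of 0 in at least 1 animal, and in each the single listed peak covered the whole annotated transcript and ran beyond it. These were *EFNB2* ENSBGRG00000004145 (a peak of 52975 bp over a transcript of 1065 bp), *PTPRM* ENSBGRG00000024579 (141134 bp over 1383 bp), *ROR1* (17445 bp over 1005 bp) and *FGFR1OP2* (14015 bp over 228 bp). All 3 animals were listed at 0 for *EFNB2*, *PTPRM* and *FGFR1OP2*, and *ROR1* was listed at 0 in TES5 and TES7 and at 0.0942 in TES6. The wide peaks of *EFNB2* and *PTPRM* lay inside the transcript of a second identifier with the same symbol on the other strand, and no peak on these genes carries a strand sign, so that the strand of origin cannot be told apart. The exon of the *FGFR1OP2* peak was annotated to another identifier.

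The 99 identifiers held 181 of the 16186 listed peaks. The exon class took 126 of them (69.6%, 95% Wilson interval 62.6% to 75.8%), beside 70.3% over the whole list. A further 41 were 3' UTR peaks (22.7%, 17.2% to 29.3%), beside 20.8%, and 14 were 5' UTR peaks (7.73%, 4.66% to 12.6%), beside 8.82%. A single peak was listed for 55 of 99 identifiers (55.6%, 45.7% to 65.0%), beside 54.0% over all identifiers. Peak widths, which include introns, had a median of 881 bp beside 1022 bp over all peaks, and 92 of 181 were at most 1000 bp wide (50.8%, 43.6% to 58.0%; all peaks 49.8%). For the class, single-peak and narrow-peak shares, the interval of the family genes held the value over all peaks. It did not for exon peaks in the first of several exons, which were 6 of 126 (4.76%, 2.20% to 10%) beside 14.03%. The listed transcripts of the family genes had a median span of 56648 bp, beside 27894.5 bp over all identifiers. The part of span and exon number in the first-exon share was not tested. The interval also missed the value over all peaks for peaks that overlap another listed peak, which were 0 of 181 (Wilson upper bound 2.08%) beside 2.31%. It also missed the value over all identifiers for the ontology term of RNA-directed DNA polymerase, which was listed for 21 of 84 with any term (25%, 17.0% to 35.2%) beside 16.7%. That term names another kind of function than these symbols, and why it is listed was not tested. The intervals cover counting error only.

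The class shares took different values by role of the gene. Ligands, semaphorins and ephrins included, had 14 of 36 peaks in the 3' UTR class (38.9%, 24.8% to 55.1%) and receptors 21 of 68 (30.9%, 21.2% to 42.6%). Receptor-type phosphatases had 2 of 32 (6.25%, 1.73% to 20.1%) and adaptors 0 of 27 (Wilson upper bound 12.5%). A count of 0 in 27, taken as under 3 counts, allows a share of up to 11.1%. Adaptors and phosphatases had 24 of 27 and 26 of 32 peaks in the exon class. Among all members, 34 identifiers had a 3' UTR peak, 19 of them beside an exon peak, and in 14 every peak lay in the 3' UTR class. The exon label does not place a peak away from the 3' end. Exon class peaks of *SOS1*, *SOS2* and *GAB1* ran to 100%, 99.95% and 99.97% of the listed transcript. Of the 27 adaptor peaks, 6 lay in the single listed exon of *IRS1*. Median widths were 3944 bp for phosphatases, 495 bp for adaptors, 677 bp for receptors and 541.5 bp for ligands. Peaks of 1 gene share their source and the groups are small, and the differences between roles were not tested.

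**Figure D1:**
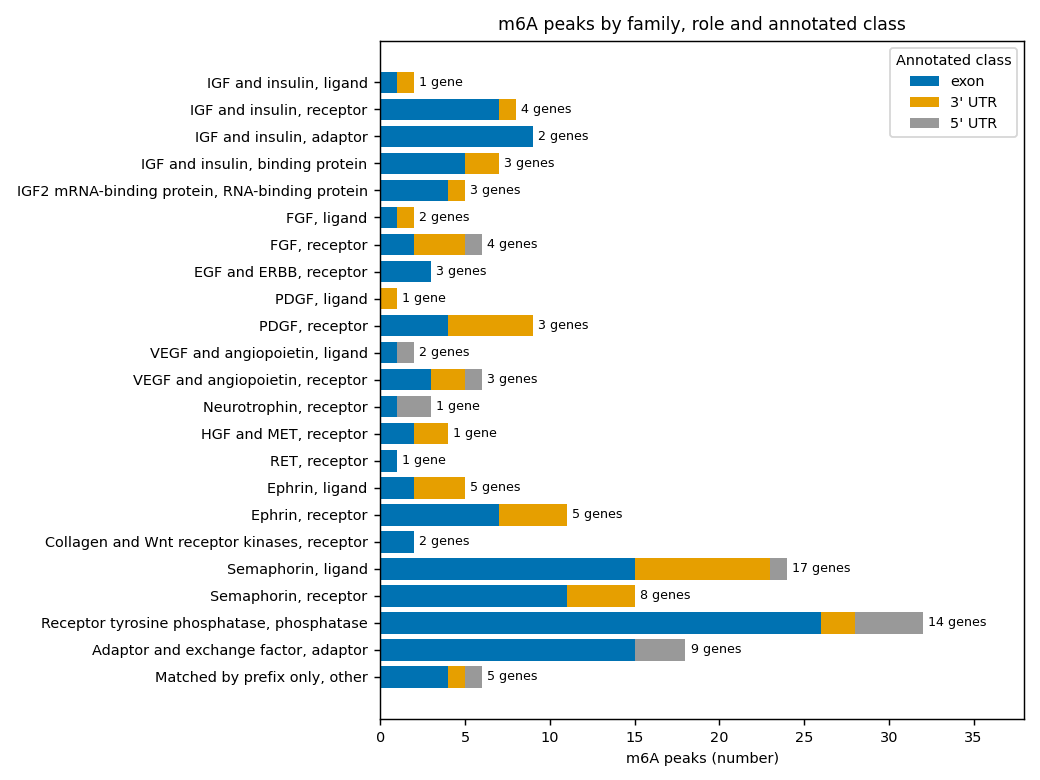
Number of listed m6A peaks (x axis) for each family and role (y axis), stacked by annotated class, with the number of gene identifiers beside each bar. Receptor-type phosphatases carried the most peaks, 32 on 14 identifiers, and neither adaptor group had a peak in the 3' UTR class.

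Among the insulin and IGF genes, *IGFBP4* and *IGF1R* had the highest levels. *IGF1R* (ENSBGRG00000006060), the receptor of the insulin-like growth factors, had an FPKM of 23.8 in TES5, 25.2 in TES6 and 24.6 in TES7, a mean of 24.5 ± 0.681 (SD, n = 3). The 3 animals lay close together, with a coefficient of variation (SD over mean) of 2.78%. Its first peak was the widest of the set, at 205746 bp on chromosome 17 from 6798033 to 7003778 (LU_Bosgru_v3.0), assigned to exon 2 of 21 and covering 62.3% of the transcript. Its other peaks were 2094 bp wide in exon 6 and 347 bp wide at the end of the 3' UTR. *IGF2R*, which takes up IGF2 for degradation, had 13.3, 19.5 and 18.4 and 1 exon peak. The identifier of *INSR* without a conflict in its listed functions (ENSBGRG00000014314) had 2.54, 2.96 and 4.91, with TES7 above the others, and its single peak of 301 bp lay in the last of 23 exons. The second *INSR* identifier (ENSBGRG00000014851) had 6.76, 8.48 and 7.19 and 3 exon peaks. *IGF1*, a ligand of IGF1R, had 1.99, 3.69 and 2.78, with 1 exon and 1 3' UTR peak.

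*IRS1* and *IRS2* are the docking proteins that the insulin and IGF1 receptors phosphorylate. *IRS1* (ENSBGRG00000013185) had 6 peaks, all inside its only listed exon on chromosome 2 and from 149 to 348 bp wide, and together they covered 37.5% of its 3714 bp transcript. In 2 places neighbouring *IRS1* peaks were 98 bp apart, and joining peaks within 100 bp left 4. Its FPKM of 1.21, 1.20 and 1.75 was low, so that many peaks did not go with a high level here. *IRS2* had 3 exon peaks and 3.98, 4.26 and 4.65. The carriers of IGF in the extracellular space were *IGFBP4* (23.2, 30.6 and 24.1), *IGFBP5* (7.14, 8.97 and 8.64) and *IGFALS* (1.19, 1.38 and 1.35). The 3 *IGF2BP* genes match by prefix but encode RNA-binding proteins that are known as readers of m6A. They had means of 3.83 ± 0.704 (*IGF2BP1*), 3.07 ± 0.632 (*IGF2BP2*) and 2.00 ± 0.409 (*IGF2BP3*), n = 3 each, and TES5 was the lowest animal in each.

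The FGF family was unevenly represented. RefSeq lists 22 FGF ligand symbols, of which 2 (*FGF2* and *FGF18*) carried a listed peak, whereas 4 of 5 receptor symbols did (*FGFR1*, *FGFR2*, *FGFR3* and the kinase-less *FGFRL1*). Without the identifiers of doubtful identity named *FGF18* and *FGFR1*, the counts were 1 of 22 and 3 of 5. Among all 16457 named protein-coding RefSeq symbols, 45.2% carried a listed peak. *FGF2* had 0.343, 0.250 and 0.355, below 1 in each animal, with a 148 bp peak in its 3' UTR. *FGFR3* (ENSBGRG00000017804) was the highest receptor of the family, with 27.6, 19.7 and 20.9 and TES5 on top. *FGFR2* had 6.26, 8.06 and 8.80 with TES5 at the bottom, so that the order of the animals differed between these receptors. Both carried 1 exon and 1 3' UTR peak. The identifier named *FGFR1* had 1.31, 0.595 and 0.463. The identifier named *FGF18* had 51.7, 63.9 and 58.5.

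The PDGF receptors *PDGFRA* and *PDGFRB* are markers of mesenchymal cells. With the receptor-like *PDGFRL* they carried 9 peaks on 3 identifiers. *PDGFRA* (ENSBGRG00000024258) had an FPKM of 13.5 in TES5, 21.9 in TES6 and 21.8 in TES7, with TES5 well below a close pair. Its 4 peaks, 3 in exons 7, 15 and 21 of 23 and 1 in the 3' UTR, were 1182 to 4206 bp wide. *PDGFRB* (ENSBGRG00000020782) had 5.53, 7.82 and 5.17, and its 4 peaks all lay in the 3' UTR class on chromosome 8 between 67146885 and 67149976, with a gap of 98 bp in 1 place. *PDGFRL* had 1 exon peak and a mean of 1.63 ± 0.120 (n = 3). Of the 4 ligand symbols, *PDGFC* carried a peak, with 9.96, 10.2 and 10.8.

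In the VEGF group, *KDR*, the main VEGF receptor of endothelium, had 5.23, 6.07 and 5.08 with 1 peak in exon 13 of 30 and 1 in the 3' UTR. *FLT4* had a mean of 1.41 ± 0.176 and *TEK*, the angiopoietin receptor, 1.89 ± 0.252 (n = 3 each). *VEGFA* had 5.68, 7.95 and 6.08 and a single 881 bp peak in the 5' UTR class. *VEGFC*, which acts on lymphatic vessels, had 12.2, 11.6 and 11.5, so that the 2 ligands with a peak were above *FLT4* and *TEK* in each animal. *FLT1* and *VEGFB* carried no listed peak, and no level can be given for a symbol without one.

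*MET*, the receptor of hepatocyte growth factor, had 2.97, 3.46 and 4.60 and 4 peaks, 1 of them 30643 bp wide. *RET*, the GDNF receptor of spermatogonial stem cells, had 3.80 in TES5, 7.85 in TES6 and 5.02 in TES7, with a coefficient of variation of 37.3%, and 1 peak of 3672 bp in exon 8 of 20. *ERBB2* had 2.22, 2.31 and 2.36, with a coefficient of variation of 3.15%, and a 200 bp exon peak. *ERBB4* had 0.476, 0.562 and 0.826, below 1 in each animal, on a transcript of 1395935 bp. The identifier named *ERBB3* had 102, 89.3 and 90.6, the highest mean of the set. *NTRK2*, a neurotrophin receptor, had 0.914, 1.52 and 1.53 and was 1 of 9 identifiers below 1 in at least 1 animal. *DDR2*, a collagen receptor, had 1.04, 1.62 and 1.57.

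Ephrins and their EPH receptors signal between touching cells. Of the ligands, *EFNB2* (ENSBGRG00000004087) had 20.01, 20.6 and 18.8, *EFNA1* 16.4, 12.4 and 14.2 and *EFNB1* 7.47, 6.96 and 7.11, each with 1 peak in the 3' UTR class. *EFNA5* had 3.25 and 3.23 in TES5 and TES6 but 1.63 in TES7, and its peak lay outside its listed transcript, in an exon of a transcript without that identifier. The 5 EPH receptors with a peak had means from 1.74 (*EPHA7*) to 6.26 (*EPHA3*), with *EPHB6* at 3.51, 6.09 and 4.96 and *EPHB4*, known from veins, at 3.23, 4.005 and 4.07. *EPHA2* and *EPHA3* carried 3 peaks each, 2 in exons and 1 in the 3' UTR. RefSeq holds 14 EPH receptor symbols, so that 9 had no listed peak.

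Semaphorins were the largest ligand group, with 24 peaks on 17 identifiers, and 16 of 20 RefSeq symbols carried a listed peak (80%). *SEMA7A*, a membrane-anchored semaphorin, had 62.1, 63.9 and 56.0, followed by *SEMA4B* (25.5, 30.2 and 28.0) and *SEMA6C* (24.4, 26.1 and 24.3). *SEMA5A* had 3 peaks, the widest of 109285 bp, and 3.03, 5.68 and 4.32. The symbol *SEMA4C* was carried by neighbouring identifiers whose animals ran in different orders. ENSBGRG00000026803 had 4.85, 9.07 and 5.91, with TES6 highest, and ENSBGRG00000026804 had 15.7, 10.8 and 7.23, with TES5 highest and the largest coefficient of variation of the identifiers at 1 or more in every animal (37.7%). Among the receptors, *PLXNB2* (24.6, 29.5 and 29.7) and *PLXNA1* ENSBGRG00000025111 (24.1, 29.2 and 29.7) were the highest, with 3 peaks each. A second *PLXNA1* identifier (ENSBGRG00000026549) had 13.99, 11.7 and 12.04. *PLXNC1* had 2.68, 1.38 and 2.99, with TES6 apart. *PLXNA4* had 2.70, 3.38 and 3.13 with 1 exon and 2 3' UTR peaks. The co-receptor *NRP2* had 1.85, 2.05 and 2.38.

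The receptor-type phosphatases had 32 peaks on 14 identifiers, 12 of which were at 1 or more in every animal. *PTPRS* had 27.2, 28.2 and 29.2, and *PTPRA* 24.4, 25.2 and 24.8, the smallest coefficient of variation of the set (1.44%). *PTPRG* had 10.04, 9.73 and 10.5 and 6 peaks on a transcript of 861698 bp, the first of them starting at 81.5% of its length. *PTPRD* had 5.26, 5.73 and 4.72 and 4 exon peaks, 1 of them 90994 bp wide. *PTPRM* ENSBGRG00000024466 had 11.4, 14.9 and 15.7, and its peaks of 66541 and 16865 bp were classed as 5' UTR although they began at 80.3% and 93.6% of the listed transcript. The symbol *PTPRE* was carried by ENSBGRG00000011844 (18.8, 20.1 and 16.7) and ENSBGRG00000010693 (1.31, 0.988 and 1.61). *PTPRC*, the leukocyte antigen CD45, had 3.69, 5.08 and 5.73 and 3 exon peaks.

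Of the adaptors, *GAB1* (4.34, 5.78 and 6.06) and *SOS1* (4.17, 4.90 and 4.18) had 5 peaks each. *SOS1*, an exchange factor that loads RAS with GTP, had all of them in exons, and *GAB1* had 3 in exons and 2 in the 5' UTR. *SOS2* had 1 exon peak and a level like that of *SOS1* (4.81, 5.75 and 4.60). *GRB14*, an inhibitor of the insulin receptor, had 11.5, 18.4 and 16.3 and 1 peak of 93740 bp that began upstream of its listed transcript, and *GRB10* had 3.63, 4.05 and 4.11. The 4 identifiers named *GAB3* on chromosome X ran from a mean of 1.48 (ENSBGRG00000018202) over 4.204 (ENSBGRG00000018662) and 27.0 (ENSBGRG00000018336) to 39.1 (ENSBGRG00000018441). By prefix only, the rule also took *EGFLAM*, an extracellular matrix protein (mean 22.9 ± 3.13), and *FGFR1OP*, a centrosomal protein (20.5 ± 2.81), n = 3 each, beside *HGFAC* (8.25 ± 1.28), *EGFL6* (3.63 ± 0.743) and *FGFR1OP2*.

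**Figure D2:**
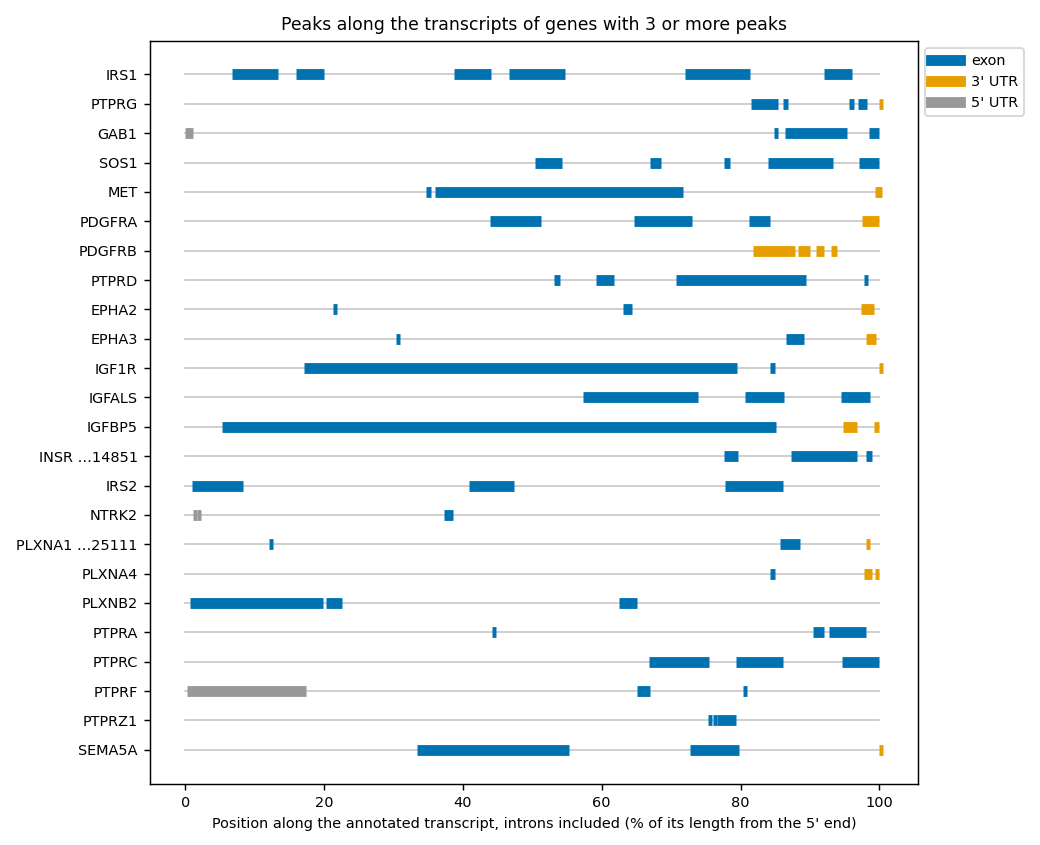
Peaks along the annotated transcript, introns included, in percent of its length from the 5' end (x axis) for each gene with 3 or more peaks (y axis), coloured by class, with each peak placed on its own listed transcript and widths under 0.6% drawn at 0.6%. *IRS1* peaks were spread over its single exon, all *PTPRG* peaks lay beyond 81.5%, and the widest *IGF1R* peak covered 62.3% of the transcript.

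Across the 99 identifiers the number of peaks had a Spearman rank correlation of 0.17 with transcript span and 0.08 with mean FPKM, beside 0.28 (n = 8986) and -0.003 (n = 8775) over all identifiers with a peak. These are descriptions across genes of 1 peak list, and genes are not replicates.

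**Figure D3:**
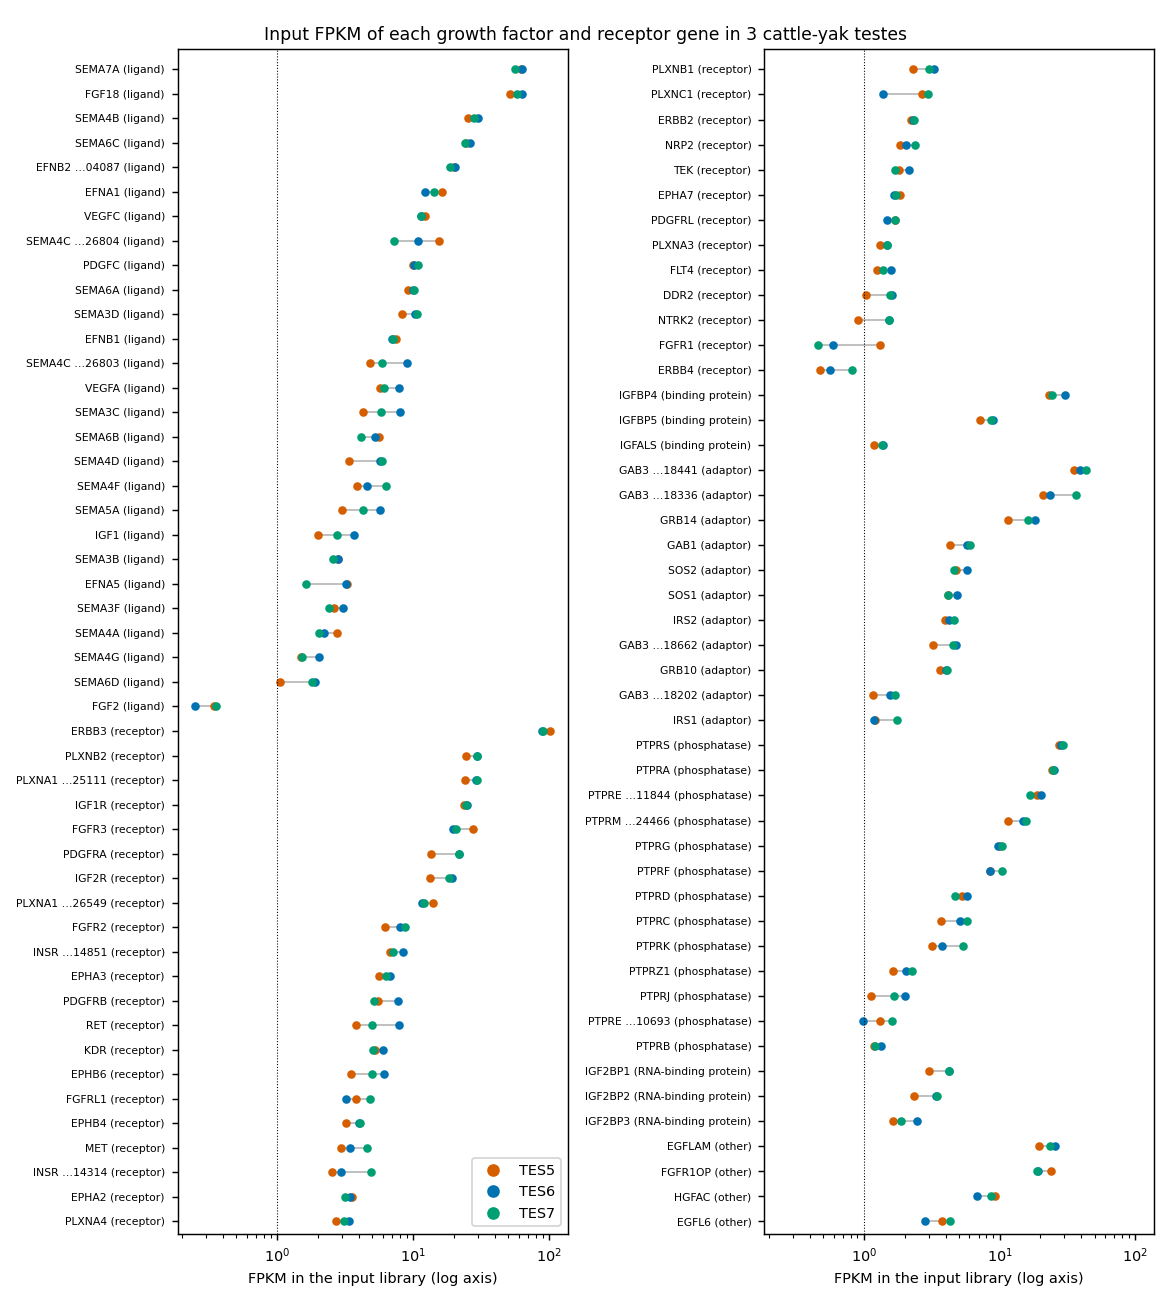
FPKM (x axis, log scale) in each animal's input library for each identifier above 0 in every animal, ordered by role and mean, with a grey line from the lowest to the highest animal and a dotted line at 1. The highest means were those of the identifier named *ERBB3*, whose symbol is in doubt, among the receptors and of *SEMA7A* among the ligands. *FGF2* and *ERBB4* lay below 1 in each animal.

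An FPKM of at least 1 in every animal was reached by 90 of 99 identifiers (90.9%, 83.6% to 95.1%), beside 54.4% over all genes and 86.9% over genes with a listed peak. Levels were modest, with a median of the means of 4.85 beside 7.36 over genes with a peak. A mean from 1 to 5 was listed for 44 identifiers and a mean of 20 or more for 16. The shares of all genes at these levels were not counted. Among the 16 are the doubtful identifiers named *ERBB3*, *FGF18* and *GAB3* (ENSBGRG00000018441) and the prefix matches *EGFLAM* and *FGFR1OP*. The median coefficient of variation of the 90 was 13.7%, beside 11.6% over genes with a peak and 12.2% over all genes. In 3 of the 90 (*RET*, *PLXNC1* and *SEMA4C* ENSBGRG00000026804) the highest animal was at least 2 times the lowest (3.33%), beside 3.75% over genes with a listed peak and 5.35% over all genes.

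TES5 was the lowest of the 3 animals for 59 of the 90 identifiers (65.6%), beside 37.6% of all genes and 41.8% of genes with a listed peak at the same minimum. The median log2 ratio of TES5 to the mean of TES6 and TES7 was -0.21 over the 90 and -0.03 over genes with a listed peak. By role, TES5 was lowest for 9 of 11 adaptors, 9 of 12 phosphatases, 20 of 31 receptors and 14 of 26 ligands. The 4 ephrin ligands had TES5 lowest in 0 of 4, and the 4 insulin and IGF receptor identifiers in 4 of 4. With the genes with a listed peak split by transcript span into 5 classes of like size, the share was 30.9% in the shortest class and 58.1% in the longest. Of the 90, 35 fell in the longest class, where 26 (74.3%) were lowest in TES5. From the shortest class upward, the other shares were 45.5% of the family genes (5 of 11) beside the 30.9%, 72.7% (8 of 11) beside 33.9%, 40% (6 of 15) beside 37.5% and 77.8% (14 of 18) beside 48.8%. The spermatocyte markers with a listed symbol (4 of 6, on 6 identifiers) summed to 57.9 in TES5 and to 36.7 and 44.4 in TES6 and TES7. Much of that difference lay in *DMC1* ENSBGRG00000002636 (21.4, 8.72 and 15.4). *SYCP3*, *SYCP1* and *MLH3* were also highest in TES5, but the other *DMC1* identifiers were highest in TES6 (0.560, 0.635 and 0.446, and 1.36, 1.72 and 1.51). The spermatogonia markers (3 of 8) summed to 15.8, 18.9 and 24.2. The part of transcript span and of cell content in the pattern of TES5 was not tested, and in bulk tissue fewer cells of a type and less RNA per cell cannot be told apart.

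**Figure D4:**
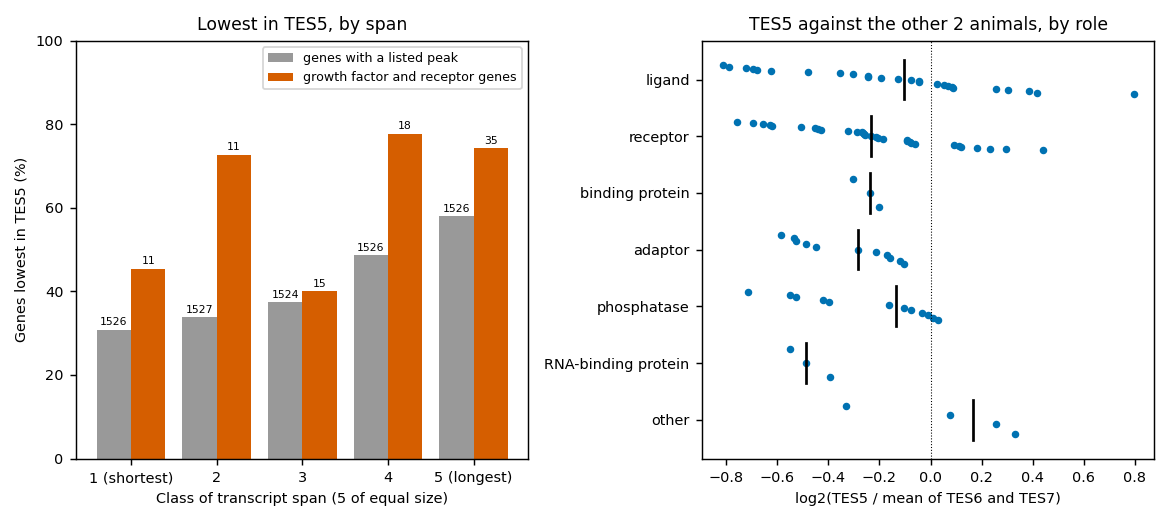
Left, percent of genes with their lowest FPKM in TES5 (y axis) by class of transcript span from shortest to longest (x axis), for all genes with a listed peak (grey) and the growth factor and receptor genes (orange), with gene numbers above the bars. Right, log2 ratio of TES5 to the mean of TES6 and TES7 for each identifier by role, with black lines at the medians, which lie below 0 for each role but the 4 genes matched by prefix only.

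The labelled tissue was checked by markers of testis cells. Sertoli markers with a listed symbol (5 of 10) summed to 109, 112 and 109 FPKM in TES5, TES6 and TES7, with *SOX9* at 26.7, 27.5 and 28.4. The peritubular myoid markers (5 of 5) summed to 364, 415 and 395, the endothelial ones (6 of 8) to 27.8, 29.7 and 26.7 and the macrophage ones (3 of 7) to 11.7, 12.8 and 14.5. *STAR* was the only Leydig marker of 7 with a listed symbol, at 100, 108 and 112. None of 8 spermatid markers had a listed symbol, so that no level can be given for them.

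The families differed in how many of their symbols carried a listed peak. Of 169 RefSeq symbols that match the rule, 88 did (52.1%), beside 45.2% of all named protein-coding symbols. Receptors stood at 33 of 55 and ligands at 26 of 61. Counted only on identifiers that drew no doubt in the checks above, these were 82 of 169 in all, 30 of 55 and 25 of 61. Identifiers without ontology terms could not be checked for their functions and stay in these counts. All 3 PDGF receptor symbols (the receptor-like *PDGFRL* included) and 1 of 4 PDGF ligands carried a peak. So did 3 of 4 ERBB receptors (2 without the doubtful *ERBB3*) but not *EGF*, and *MET* but not *HGF*. Symbols come from different annotations, and a gene whose identifier has no symbol in the peak list counts as without a peak.

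**Figure D5:**
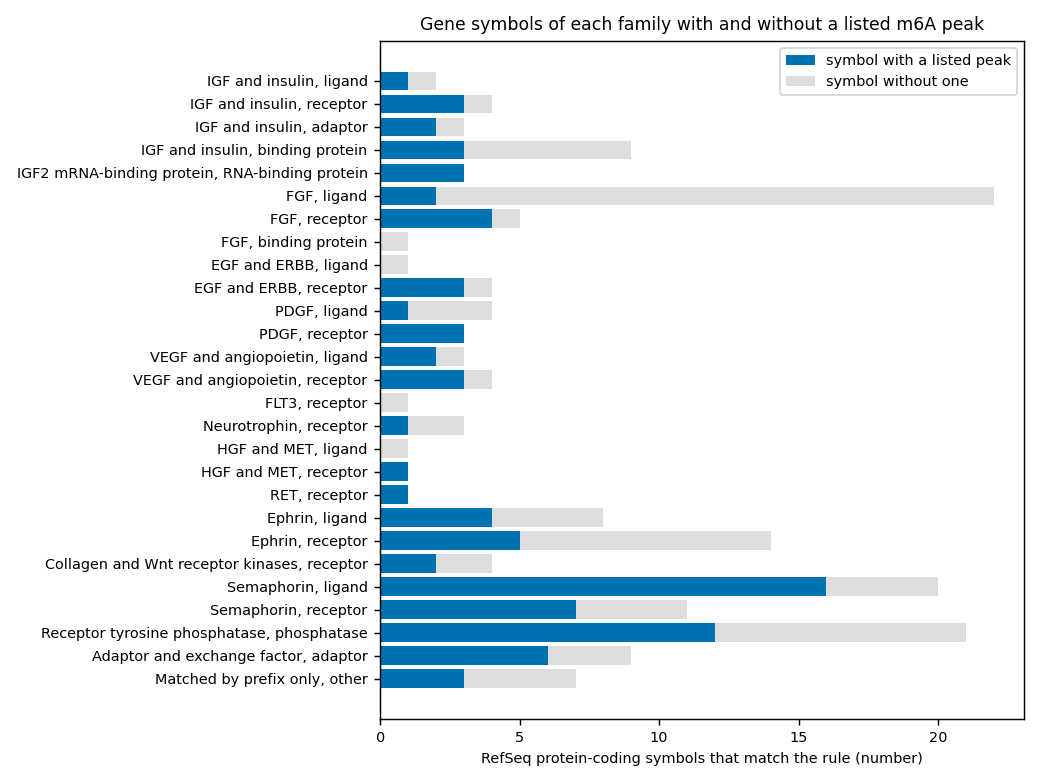
Number of RefSeq protein-coding symbols that match the rule (x axis) for each family and role (y axis), split into those with a listed peak (blue) and those without (grey). The FGF ligands, with 2 of 22, and the semaphorins, with 16 of 20, lie at opposite ends of the large groups.

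Genes of the same pathways that the rule does not name were taken from lists by role. Their counts stand beside 45.2% of all named protein-coding RefSeq symbols with a listed peak, and differences from that share were not tested. The list symbols were not matched to RefSeq or checked against their ontology terms. Some identifiers were at 0 in an animal, such as those named *INS* in TES5 and *SDC4* in TES7. Of 16 other receptor kinases 7 carried a listed peak, with *KIT*, the stem cell factor receptor of germ cells, at 8.64, 9.23 and 12.2. Of 25 other ligands 11 did, with *PTN*, a heparin-binding growth factor, at 181, 194 and 174 and *NRTN*, a RET ligand of the GDNF family, at 13.1, 11.6 and 9.81. Of 14 co-receptors 8 did, with the glypicans *GPC4* (37.1, 38.5 and 35.3) and *GPC1* (26.1, 26.2 and 25.6) among the highest. Adaptors and genes of the RAS cycle stood at 20 of 27. The highest of them was an identifier named *PTPN11* (ENSBGRG00000020003), at 234.1, 236.9 and 249.1, followed by *NRAS* at 60.2, 63.7 and 55.6. Another identifier named *PTPN11* (ENSBGRG00000019798) had 23.77, 29.9 and 32.38, and which of them is the named gene was not tested. Inhibitors of receptor signalling stood at 15 of 18, with *PTPN1* at 42.1, 37.4 and 38.5 and *ERRFI1*, an inhibitor of ERBB receptors, at 16.3, 15.1 and 16.5. Genes of the PI3K and AKT branch stood at 11 of 18, with *AKT2* at 51.0, 49.7 and 51.6 and *FOXO1* at 14.9, 19.4 and 19.9. In the pathway column of the peak list, axon guidance was the most frequent entry, on 24 of the 46 identifiers with an entry and on 57 of 2547 among all identifiers with one, so that the family genes made up 42.1% of that pathway. PI3K-Akt signalling followed with 11 (23.9%, beside 3.14% of all identifiers with an entry). MAPK and Ras signalling had 10 each (21.7%, beside 2.98% and 1.73%). The rule chose these families by name, so that the shares follow from the choice and are not a result about the peaks.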

How the data were processed

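The authors trimmed the reads with Trimmomatic, aligned them with HISAT2 2.0.4 (versions per the labels) to LU_Bosgru_v3.0, called m6A peaks with MeTDiff from IP against input and annotated them with ChIPseeker. The deposited peak list holds positions and lengths in bp, introns included. The study's methods describe calling in each sample, whereas the list is 1 for the group, and how the samples were combined is not given in the sources used here. A second deposited table gives FPKM, without IP values, over 20953 genes. The program that computed them is not given in the sources used here. FPKM values keep no read numbers, so that the depth behind a value is unknown and no interval or detection limit was given for a gene. The animals are separate, and no test was made, since there was 1 condition.

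Members were found by a pattern on the symbol, and values are means and SD over 3 animals. Shares have 95% Wilson intervals. The minimum was an FPKM of 1 in every animal. The members and lists were chosen with earlier results of these data known. Within each family and role, the highest means and the most peaks (up to 3 each) were named, with the extremes in peak number, width and variation, identifiers listed at 0 or sharing a symbol, prefix matches and 12 preset receptors and ligands. *GRB10*, *SOS2*, *PTPRC*, *NRP2* and the symbols without a peak fall outside that rule and were chosen after their values were seen. Tables were handled with pandas 2.3.3 and numpy 2.4.6 under Python 3.11.15, figures were drawn with matplotlib 3.10.9, and SciPy 1.17.1 served in the tests of the procedures on simulated data. The 12 identifiers of doubtful identity, and every alternative that leaves them out, were chosen after seeing the data. Alternatives were other minimums, merged peaks, rescaled libraries, geometric means with pseudocounts of 1 and 0.1, subsets of members and each animal left out. No genome sequence of this build was used here, so that no sequences or motifs are given.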

Additional observations from a re-analysis of the deposited data

How the results depend on the processing

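No paired analysis was possible because peaks carry no value per animal and expression was given for the inputs alone. Of 53 alternatives to the counts, shares, correlations and medians, 49 stayed within the main value's interval or within 1.5 times of it. Leaving out or joining a few peaks or identifiers could hardly move a count that far, and the intervals of the correlations were wide. Much of this agreement was therefore built in, and the 49 do not measure how firm the results are. Among peaks of at most 1000 bp the exon share was 58.7% and the 3' UTR share 32.6%, and weighting by width gave 3.89% for the 3' UTR and 25.6% for the 5' UTR class, where 6 peaks over 10000 bp lie. The share lowest in TES5 was 65.2% to 72.2% under 4 alternatives chosen after seeing the data, among them the 12 identifiers of doubtful identity left out (66.3%). The rank correlation of peak number with mean FPKM, 0.08, was 0.01 over members at 1 or more in every animal and 0.03 without the doubtful identifiers, and that with span, 0.17, was 0.11 and 0.07. Rescaled and geometric means of 96 identifiers differed from the main mean by less than 1 SD in 384 of 384 cases. The factors for the same sum ran only from 0.970 to 1.04, and a geometric mean lies near the mean of like values. A small difference was therefore built into these alternatives, and they do not test the levels.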
